A study of Arabidopsis thaliana with 9 samples.

Results

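Genes that act when a plant cell divides were followed by sequencing polyadenylated RNA from whole Arabidopsis seedlings. They were chosen by name from the loci listed in every library, so 10 of 33518 measured genes are described: 5 cyclins, 4 B-type cyclin-dependent kinases and 1 Aurora kinase. A cyclin binds a cyclin-dependent kinase and lets it phosphorylate its targets, and B-type kinases, which are found in plants, pair with A- and B-type cyclins around the G2 phase and mitosis. These genes are transcribed for a short part of the cell cycle, so in a whole seedling their RNA comes mainly from dividing cells of root and shoot tips, young leaves and the stomatal lineage. Drought and the hormone abscisic acid (ABA) are known to slow division in such tissues.

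The 9 libraries cover 3 genotypes and 3 treatments, with 1 library for each combination and RNA of 3 experiments pooled in it. The genotypes were aba2-1, a mutant in the ABA biosynthesis gene ABA2, then p5cs1-4, a mutant in the proline biosynthesis gene P5CS1, and wild type of the accession Col-0 (WT). Seedlings grew for 7 days on agar without sugar. Those of the libraries labelled release then spent 96 h at -1.2 MPa on agar infused with polyethylene glycol 8000 and a further 10 h on control medium. Those of the libraries labelled stress were collected at the end of the 96 h at -1.2 MPa, and controls after 96 h at -0.25 MPa. No group had a second library, so the difference between any pair of libraries has no replicate check, and intervals given with a fold are 95% intervals for counting error only. A lower level can mean fewer dividing cells or less RNA in each, and in bulk RNA these cannot be told apart.

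Libraries held between 4898426 reads (WT control) and 18273148 reads (p5cs1-4 control) on genes. ABA2 lay between 15.6 and 22.0 CPM (reads scaled to the TMM-adjusted library size) in all 9 libraries, which checks nothing about its mutant allele. P5CS1 was at 1199, 174 and 125 CPM in the p5cs1-4 libraries labelled release, labelled stress and control, against 3918, 74.1 and 195 CPM in those of WT. Water stress is known to raise P5CS1 and the ABA-induced gene RAB18, and release is known to raise the proline-degrading gene PRODH1. The treatment labels went against this: P5CS1 was highest, and PRODH1 lowest, in the library labelled release of every genotype. RAB18 was at 66.2, 4778 and 4950 CPM in the libraries of aba2-1, p5cs1-4 and WT labelled release, against 5.15, 81.4 and 13.9 CPM in those labelled stress. The aba2-1 control also held 634 CPM of P5CS1 and 252 CPM of RAB18. Libraries are therefore called by their labels, and no direction below is a direction of stress or of recovery. Seedling markers of root and shoot were both present, with root meristem markers summing to between 50.6 and 62.2 CPM and green tissue markers to between 4067 and 16498 CPM, while the stem cell gene WUS was at 0 in all 9.

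The members are spread over all 5 chromosomes, and their identity is given here on the TAIR10.1 assembly. The B1 cyclins, which drive entry into mitosis and are degraded before it ends, were CYCB1;1 (AT4G37490, chr4:17621886-17624308, minus strand), CYCB1;2 (AT5G06150, chr5:1859279-1861703, minus strand) and CYCB1;4 (AT2G26760, chr2:11401118-11403433, plus strand). CYCB2;1 (AT2G17620, chr2:7664055-7666522, plus strand) is a B2 cyclin, and CYCA1;1 (AT1G44110, chr1:16774765-16777352, minus strand) is an A-type cyclin. The B1 kinases, known for their part in the G2 to mitosis step and in stomatal divisions, were CDKB1;1 (AT3G54180, chr3:20059671-20061488, plus strand) and CDKB1;2 (AT2G38620, chr2:16152473-16154086, plus strand). The B2 kinases, needed for meristem organisation, were CDKB2;1 (AT1G76540, chr1:28720328-28722550, minus strand) and CDKB2;2 (AT1G20930, chr1:7292389-7294746, minus strand). AUR1 (AT4G32830, chr4:15842443-15844865, plus strand) encodes an Aurora kinase of the mitotic spindle. Reads that map to several places reached 18.8% of a library's reads for CYCB1;2 and were 0 for the other 9 genes.

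Many plant genes of this phase carry a mitosis-specific activator element, bound by MYB3R transcription factors, with the core AACGG. The core was searched on both strands in the 250 bases before the annotated start of 9 of the members, in the RefSeq genome. Of these 9, 6 held at least 1 match, against 20.6% of 27442 protein-coding genes. At least 2 matches were found in 4 members, against 3.62% of all windows, and at least 3 in 3 members, against 0.736%. The windows of 3 members are printed: CYCB1;2, which holds the most matches, AUR1, whose fold within WT is the largest below, and CDKB1;1, which holds none. Capitals mark AACGG and, on the other strand, its reverse complement CCGTT.
CYCB1;2: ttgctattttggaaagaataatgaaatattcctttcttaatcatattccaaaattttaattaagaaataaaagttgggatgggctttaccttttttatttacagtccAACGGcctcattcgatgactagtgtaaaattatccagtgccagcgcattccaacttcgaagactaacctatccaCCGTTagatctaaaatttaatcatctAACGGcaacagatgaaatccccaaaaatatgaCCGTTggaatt
AUR1: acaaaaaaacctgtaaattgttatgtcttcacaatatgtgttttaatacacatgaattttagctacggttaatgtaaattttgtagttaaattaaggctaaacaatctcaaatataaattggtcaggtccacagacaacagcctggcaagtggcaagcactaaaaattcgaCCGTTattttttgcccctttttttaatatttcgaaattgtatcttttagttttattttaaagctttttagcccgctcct
CDKB1;1: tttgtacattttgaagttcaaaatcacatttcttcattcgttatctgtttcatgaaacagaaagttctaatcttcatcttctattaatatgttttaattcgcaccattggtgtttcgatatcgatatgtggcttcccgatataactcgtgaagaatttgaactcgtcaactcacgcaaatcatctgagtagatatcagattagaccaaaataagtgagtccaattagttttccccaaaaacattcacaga
These windows lie at chr5:1861704-1861953, minus strand, at chr4:15842193-15842442, plus strand, and at chr3:20059421-20059670, plus strand. The last one overlaps an annotated neighbour, AT3G54170. Matches in the first window begin 143, 69, 43 and 11 bases before the gene start, and the AUR1 match begins 79 bases before it. A match is a run of letters and not a shown binding site, and a window with none says nothing of the factor.

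**Figure D1:**
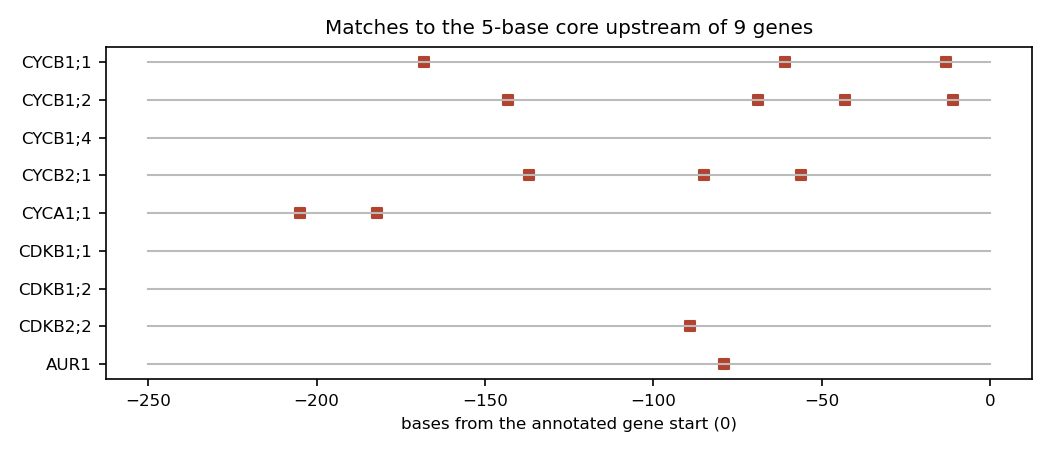
Position of each AACGG core, on either strand, in the 250 bases before the annotated start of 9 genes (x axis, bases from the start). Squares are matches: 14 in 6 genes, of which 11 lie within 150 bases of the start, and 3 genes have none.

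Per length, the most abundant of the 10 was CDKB2;1 in 7 libraries and CYCB1;2 in the other 2. CDKB2;1 lay between 5.88 and 19.7 RPKM, the deposited reads per kilobase and library size, with a median of 14.6. CYCB2;1 and CDKB1;2 took 2 of the last 3 places in every library, with medians of 1.14 and 1.50 RPKM. Depth limits both: in the WT control each rested on 4 reads. The B2 kinases kept a narrow ratio, with CDKB2;2 at between 0.412 and 0.643 of the RPKM of CDKB2;1. The B1 kinase ratio, CDKB1;2 over CDKB1;1, ran more widely, from 0.0713 in the WT control to 0.549 in aba2-1 labelled stress.

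Summed over the 10 genes, the level was lowest in WT labelled release and highest in aba2-1 labelled stress. In aba2-1 the sums were 95.9, 128 and 91.6 CPM in the libraries labelled release, labelled stress and control. In p5cs1-4 they were 56.9, 107 and 94.7 CPM, and in WT 39.7, 96.3 and 84.3 CPM. WT labelled release was the lowest library for 8 of the 10 genes, and aba2-1 labelled stress the highest for 7.

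By gene, AUR1 was at 6.78, 9.93 and 7.26 CPM in aba2-1 labelled release, labelled stress and control. Its values were 4.44, 7.42 and 7.90 CPM in p5cs1-4 and 1.49, 9.21 and 4.42 CPM in WT. Of these 9 values the WT library labelled release is the lowest, and the libraries labelled stress overlap with the controls only through p5cs1-4. CDKB2;1 followed with 18.9, 25.8 and 17.7 CPM in aba2-1, 11.0, 20.5 and 21.9 CPM in p5cs1-4, and 8.27, 23.8 and 17.5 CPM in WT, in the same order of treatments. CYCB1;2 had 17.0, 24.4 and 22.5 CPM in aba2-1, 9.54, 18.6 and 20.4 CPM in p5cs1-4, and 6.55, 20.3 and 23.3 CPM in WT. For both, the p5cs1-4 and WT libraries labelled release lie below the other 7, with aba2-1 labelled release between them and the libraries labelled stress. CDKB1;1 showed another order, with 6.62, 7.40 and 6.52 CPM in aba2-1, 5.29, 7.69 and 5.77 CPM in p5cs1-4, and 5.17, 5.13 and 10.5 CPM in WT. Its WT control stands above all other libraries. The lowest members were CYCB2;1, between 0.459 and 3.91 CPM, and CDKB1;2, between 0.931 and 5.06 CPM.

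**Figure D2:**
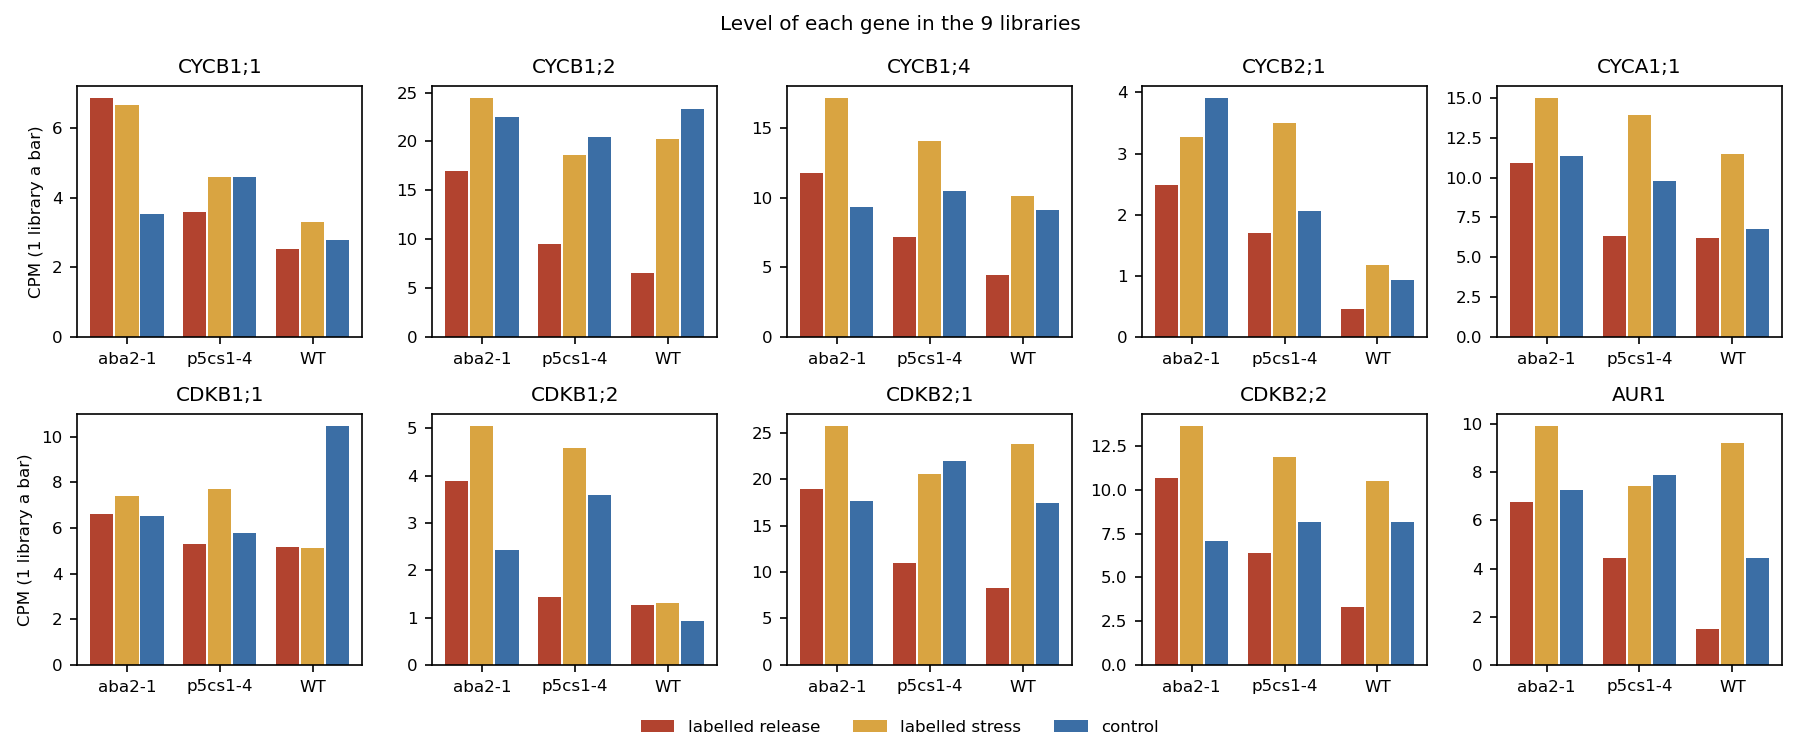
CPM of each of the 10 genes (y axis, a scale for each panel) by genotype, with 1 bar for each library labelled release, labelled stress and control. For most genes the WT bar labelled release is the shortest, for example 1.49 CPM for AUR1 against 9.21 CPM in WT labelled stress.

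The first question is how release-labelled and stress-labelled libraries differ within a genotype. Levels were lower in the libraries labelled release, by a factor that differed between genotypes. The sum was 1.34-fold lower in aba2-1 (interval 1.24 to 1.45), 1.88-fold lower in p5cs1-4 (1.70 to 2.07) and 2.42-fold lower in WT (2.13 to 2.76). These 3 intervals do not overlap, but they hold counting error only, and the difference between genotypes was not tested with replicates.

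In WT, 5 members were called at least 2-fold lower on log2(CPM + 1), among 7 that reached 5 CPM in either library, where 11.6% of all 16685 genes that did so were lower and 10.3% higher. They were 2 B1 cyclins, both B2 kinases and AUR1. AUR1 was at 1.49 CPM in WT labelled release, against 9.21 CPM in WT labelled stress, which is 6.17-fold lower (3.38 to 12.2). CDKB2;2 stood at 3.33 against 10.5 CPM, 3.16-fold lower (2.04 to 5.01). Its paralogue CDKB2;1 stood at 8.27 against 23.8 CPM, 2.88-fold lower (2.18 to 3.84), and the intervals of the 2 overlap. CYCB1;2 was at 6.55 CPM against 20.3 CPM, 3.09-fold lower (2.27 to 4.27), and CYCB1;4 at 4.48 CPM against 10.1 CPM, 2.26-fold lower (1.52 to 3.42). CYCA1;1 was 1.85-fold lower, with an interval of 1.30 to 2.64 that excludes no change but with a fold under the threshold. Among the 7 past the floor 6 intervals lay on the lower side, where 34.6% of all genes past the floor had an interval on that side and 33.3% on the higher side. The B1 kinases showed no difference beyond counting error: CDKB1;1 was at 5.17 CPM against 5.13 CPM (fold 1.01, 0.641 to 1.59), and its paralogue at 1.26 against 1.32 CPM (fold 0.960, 0.370 to 2.52). CYCB1;1, known as a gene that DNA damage also raises in plants, stood at 2.53 against 3.29 CPM, and its interval (fold 0.413 to 1.42) includes no change.

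In p5cs1-4 all 10 members were lower in the library labelled release, with log2 ratios between -1.20 and -0.28, and 9 of their intervals excluded no change. Among the 7 past the floor all 7 did so, where 30.1% of all genes past the floor had an interval on the lower side and 31.9% one on the higher side. Only CYCA1;1 was called, at 6.34 CPM in p5cs1-4 labelled release against 13.9 CPM in p5cs1-4 labelled stress (2.19-fold lower, 1.65 to 2.92), where 6.21% of all genes past the floor were lower and 5.98% higher. On deposited RPKM its log2 ratio was -0.99, short of the threshold. CDKB1;2 was 3.19-fold lower (1.81 to 5.73) but did not reach 5 CPM in either library. In aba2-1 no member was called, where 5.64% of all genes were lower and 3.79% higher, and log2 ratios lay between -0.51 and 0.04. AUR1 was at 6.78 CPM in aba2-1 labelled release against 9.93 CPM in aba2-1 labelled stress, 1.46-fold lower (1.09 to 1.97). In aba2-1, 6 of the 10 intervals excluded no change, all on the lower side and all among the 9 members past the floor, where 31.9% of all genes had an interval on the lower side and 30.6% on the higher side.

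**Figure D3:**
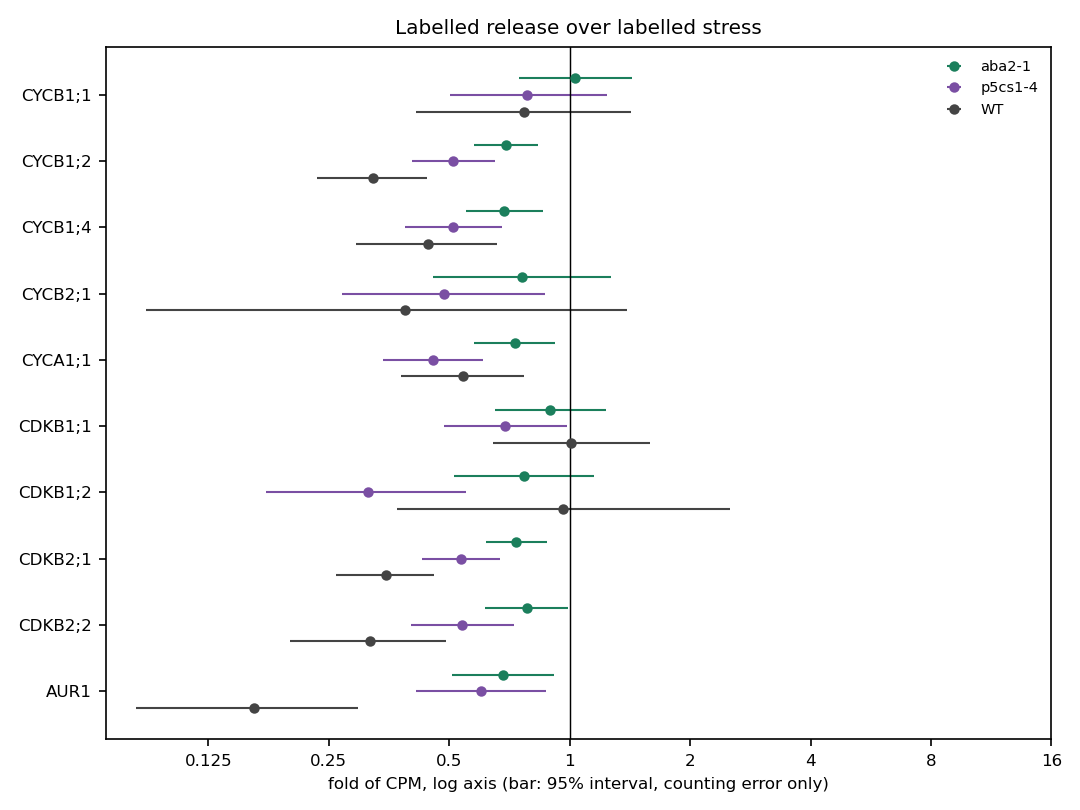
Fold of CPM in the library labelled release over that labelled stress for each gene (x axis, log scale), in aba2-1, p5cs1-4 and WT. Points are folds and bars are 95% intervals for counting error only; the WT point of AUR1 lies farthest left, at 0.162, and the aba2-1 points lie between 0.683 and 1.03.

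Against control, the libraries labelled release were lower in WT and p5cs1-4 and not in aba2-1. The aba2-1 control held 252 CPM of RAB18, above the 66.2 CPM of aba2-1 labelled release. It was thus not shown to be in a control state, which limits each aba2-1 comparison with control below. The sum was 1.05-fold that of control in aba2-1 (0.942 to 1.17), 1.67-fold lower in p5cs1-4 (1.53 to 1.81) and 2.12-fold lower in WT (1.83 to 2.47). In WT, 2 of the 6 members past the floor were called lower, where 14.0% of all genes past it were lower and 12.7% higher. They were CYCB1;2 at 6.55 against 23.3 CPM and CDKB2;2 at 3.33 against 8.15 CPM. With a pseudocount of 0.1 in place of 1, 5 of the 6 members past the floor were called, as CYCB1;4, CDKB1;1 and CDKB2;1 were 2.03-fold, 2.03-fold and 2.11-fold lower in CPM. The share of all genes called at a pseudocount of 0.1 is not given, so the 5 are not read against it. On deposited RPKM CYCB1;2 alone was called. In p5cs1-4, 1 of the 7 members past the floor was called, where 11.8% of all genes were lower and 8.4% higher, a count near that share. It was CYCB1;2, at 9.54 against 20.4 CPM (2.14-fold lower, 1.76 to 2.62). That log2 ratio of -1.03 became -0.82 on deposited RPKM and -0.98 with reads that map to 1 place only, which ends the call, and CYCB1;2 is the one member with reads that map to several places. In aba2-1 no member was called, where 4.56% of all genes were higher and 5.62% lower. Between labelled stress and control no member was called in any genotype. In aba2-1, 4.5% of all genes past the floor were higher and 3.57% lower. The shares were 4.03% and 5.84% for p5cs1-4, and 4.45% and 4.09% for WT. With a pseudocount of 0.1, AUR1 was called higher in WT (2.08-fold in CPM, 1.24 to 3.66) and CDKB1;1 lower (2.04-fold, 1.30 to 3.22). CDKB1;2 was then called higher in aba2-1 (2.09-fold, 1.13 to 4.17). These calls at a pseudocount of 0.1 also have no share of all genes beside them. The summed level was above control, by 1.40-fold in aba2-1 (1.26 to 1.56), 1.13-fold in p5cs1-4 (1.03 to 1.23) and 1.14-fold in WT (1.01 to 1.30).

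The second question is how the mutants differ from WT under one treatment label. An equal label was not shown to be an equal state: the aba2-1 control held 634 CPM of P5CS1 and 252 CPM of RAB18, against 195 and 31.4 CPM in the WT control. In the libraries labelled release, aba2-1 held 2.41-fold more of the summed RNA than WT (2.14 to 2.73), and p5cs1-4 held 1.43-fold more (1.26 to 1.63). In aba2-1, 6 members were called at least 2-fold higher than in WT, among 8 past the floor, where 4.8% of all genes were higher and 5.27% lower. AUR1 stood at 6.78 CPM in aba2-1 and 1.49 CPM in WT, 4.54-fold higher (2.52 to 8.87). CDKB2;2 was at 10.7 against 3.33 CPM (3.20-fold, 2.13 to 4.96) and CYCB1;1 at 6.86 against 2.53 CPM (2.71-fold, 1.69 to 4.55). The other calls, the remaining B1 cyclins and the second B2 kinase, lay between 2.29-fold and 2.63-fold. CDKB1;1 was at 6.62 against 5.17 CPM, an interval of 0.883 to 1.88 that includes no change.

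In p5cs1-4 labelled release none of the 6 members past the floor was called against WT, where 1.8% of all genes were higher and 1.33% lower. All 10 stood above WT, with a median log2 ratio of 0.43, against -0.02 for all genes past the floor. AUR1 was at 4.44 CPM against 1.49 CPM, 2.98-fold higher (1.63 to 5.87), and did not reach the floor of 5 CPM. In the libraries labelled stress, 1 of the 9 members past the floor was called in aba2-1, where 6.65% of all genes were higher and 6.49% lower, a count near that share. It was CDKB1;2, at 5.06 CPM in aba2-1 and 1.32 CPM in WT (3.84-fold higher, 1.94 to 8.47). On deposited RPKM it lay under the floor, at 3.45 and 0.791. In p5cs1-4 labelled stress no member was called, where 5.94% of all genes were higher and 6.53% lower. In the controls no member was called in either mutant, where 8.13% of all genes were higher and 9.48% lower in aba2-1, and 3.82% higher and 2.69% lower in p5cs1-4. The summed levels in the controls were 1.09-fold (0.947 to 1.25) and 1.12-fold (1.00 to 1.26) those of WT in aba2-1 and p5cs1-4.

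**Figure D4:**
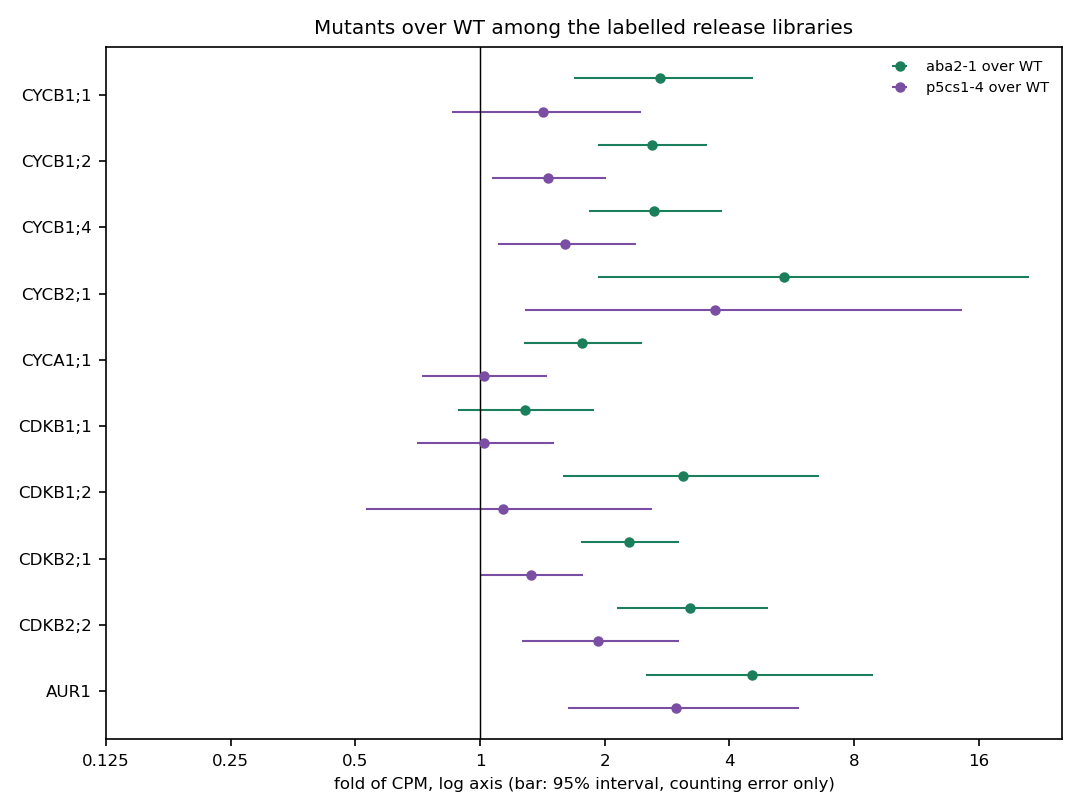
Fold of CPM of aba2-1 over WT and p5cs1-4 over WT in the libraries labelled release for each gene (x axis, log scale), with 95% intervals for counting error only. All 10 aba2-1 points lie right of 1, from 1.28 to 5.43.

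Across all 9 libraries, an additive model of treatment and genotype gave the only test with residual degrees of freedom, 4 in all. It used edgeR's quasi-likelihood test with Benjamini-Hochberg adjustment over 19600 genes. For labelled release against labelled stress, all 10 log2 fold changes lay below 0, with a median of -0.86 and a range of -1.21 to -0.20. The median of all genes was 0.02. None of the 10 reached an adjusted p of 0.05, where 2.16% of all genes were lower and 1.53% higher, while 6 had an unadjusted p under 0.05, where 12.6% of all genes were lower and 12.2% higher at that level. The nearest were CYCB1;2, at -0.99 (SE 0.27, edgeR adjusted p = 0.0826), and CYCA1;1, at -0.81 (SE 0.23, edgeR adjusted p = 0.0845). For labelled release against control the members again had no call, where 3.89% of all genes were lower and 1.8% higher, and the nearest was CYCB1;2 at -1.07 (SE 0.27, edgeR adjusted p = 0.062). DESeq2 called 3 members lower in the first contrast, CDKB2;1, CYCA1;1 and CYCB1;2, where it called 7.45% of all genes lower and 5.71% higher. In the second it called 1, CYCB1;2, where 10.2% of all genes were lower and 6.59% higher, so that 1 of 10 is at the share of all genes. Without the aba2-1 libraries, edgeR called CDKB2;1 and CYCB1;2 lower in both. That fit called 5.72% of all genes lower and 4.16% higher in the first contrast, and 11.8% lower and 7.92% higher in the second. Labelled stress against control called 0 of all 19600 genes by edgeR, though 1613 had an unadjusted p under 0.05 and DESeq2 called 67, none of them a member. For aba2-1 against WT edgeR also called 0 genes (2878 at an unadjusted p under 0.05, 531 by DESeq2, none a member). There all 10 members had a log2 fold change above 0, with a median of 0.70, against 0.003 for all genes. Of the members, 5 had an unadjusted p under 0.05, where 7.29% of all genes were higher and 7.39% lower at that level. The largest was CYCB2;1 at 1.96 (SE 0.45, edgeR adjusted p = 0.215). CYCB2;1 held only 4, 9 and 4 reads in WT labelled release, labelled stress and control, and did not reach 5 CPM in any library. For p5cs1-4 against WT edgeR called 0 genes, with 2124 at an unadjusted p under 0.05 and 157 by DESeq2, none a member. In this contrast 9 members had a log2 fold change above 0, and the median of all 10 was 0.38, against 0.008 for all genes.

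Beside the members, 7 other lists of cell cycle and housekeeping genes were followed, 88 genes in all. In WT labelled release over WT labelled stress, the median log2 ratio was -0.91 for the members and -1.10 for 13 genes of mitosis and cytokinesis, against -0.00 for all genes past the floor. For this pair, 11.6% of all genes past the floor were at least 2-fold lower and 10.3% higher. Of the 13 genes of mitosis and cytokinesis, 6 were at least 2-fold lower, among them the spindle checkpoint gene MAD2, at 3.22 against 17.1 CPM. HINKEL, a kinesin of the phragmoplast that builds the new cell plate, was another, at 7.12 against 23.3 CPM. The 18 DNA replication genes had a median of -0.78 with 4 lower, led by PCNA1, the sliding clamp, at 3.45 against 10.3 CPM. The 10 other A- and B-type cyclins had a median of -0.62 with 2 lower, and 9 mitotic regulators, among them the MYB3R factors, -0.36 with none lower. The 16 genes of D-type cyclins, E2F factors and RBR1, which act before DNA replication, had a median of -0.10, the 16 CDK inhibitor loci 0.09 and 6 housekeeping genes -0.06. Single genes of the D-type cyclin and inhibitor lists lay far from these medians. SMR8, of the SIAMESE-RELATED inhibitor family, was called higher, at 6.66 CPM in WT labelled release against 0.395 CPM in WT labelled stress. Of the D-type cyclins, CYCD2;1 was called higher (43.9 against 19.1 CPM) and CYCD5;1 lower (2.18 against 6.31 CPM). In p5cs1-4 the inhibitor called higher was SMR3 (6.40 against 2.16 CPM), where 5.98% of all genes past the floor were higher. In aba2-1 the inhibitor KRP2 was called lower (10.1 against 21.4 CPM), where 5.64% were lower. Single calls among 16 loci are near these shares. In aba2-1 over WT labelled release, the medians were 1.19 for the members, 1.16 for mitosis and cytokinesis (7 of 13 higher), 1.05 for the other cyclins (5 of 10) and 0.67 for replication (4 of 18). Of all genes past the floor, 4.8% were higher and 5.27% lower there. CDC20.1, an activator of the anaphase-promoting complex, was at 26.0 CPM in aba2-1 against 8.27 CPM in WT. In the additive model, 2 replication genes were called lower in labelled release against control and 1 in labelled release against labelled stress. Of all 19600 genes, 3.89% and 2.16% were called lower in these contrasts. MCM5, a subunit of the replicative helicase, was called in both, at -0.79 and -0.91 on the log2 scale (edgeR adjusted p = 0.0473 and 0.0423). PCNA1 was the other in the first contrast, at -1.34 (edgeR adjusted p = 0.0406).

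**Figure D5:**
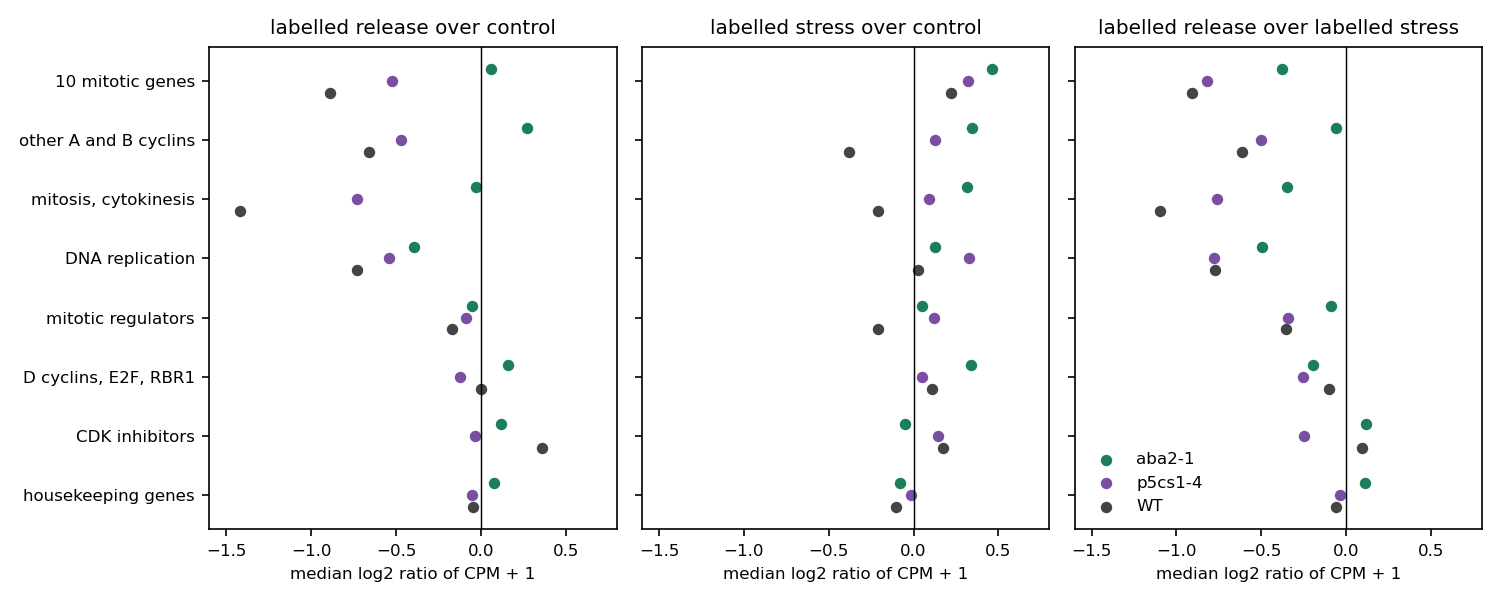
Median log2 ratio of CPM + 1 (x axis) of the 10 genes and 7 further lists, for 3 pairs of libraries within aba2-1, p5cs1-4 and WT. In labelled release over labelled stress the 10 genes lie at -0.38 in aba2-1, -0.82 in p5cs1-4 and -0.91 in WT, and the inhibitor loci at 0.12, -0.25 and 0.09 in the same order. The other mitotic cyclins and the mitotic regulators are near 0 in aba2-1, at -0.06 and -0.09.

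Stomatal lineage markers were low in 2 of the libraries where the members were low. Their 5 genes summed to 21.0, 3.33 and 3.79 CPM in aba2-1, p5cs1-4 and WT labelled release, against 26.5, 14.0 and 22.5 CPM in the libraries labelled stress and 22.0, 20.4 and 26.8 CPM in the controls. They were 5.94-fold lower in WT labelled release than in WT labelled stress (4.07 to 8.90), against 2.42-fold for the members. TMM, a receptor of that lineage, was at 12.9 CPM in aba2-1 labelled release and 1.72 CPM in WT labelled release. Summed markers of the root meristem varied less, from 50.6 to 51.5 CPM in the libraries labelled release, 58.8 to 60.3 CPM in those labelled stress and 56.8 to 62.2 CPM in the controls. Nearly all of that sum was SCR and SHR, while PLT1, PLT2 and WOX5, which define the stem cell region, did not pass 1.44 CPM in any library. The 5 shoot meristem markers summed to 132, 94.0 and 90.8 CPM in aba2-1, p5cs1-4 and WT labelled release, against 101, 107 and 135 CPM in those labelled stress and 118, 135 and 164 CPM in the controls. Among them ANT, a regulator of organ growth, was at 41.5, 17.3 and 14.1 CPM in the same libraries labelled release, against 33.2, 28.1 and 29.1 CPM in those labelled stress. The others did not all follow ANT. In WT, STM (4.02 against 6.58 CPM) and CLV1 (49.0 against 81.0 CPM) were lower in labelled release, but KNAT1 (23.7 against 18.2 CPM) was higher. In p5cs1-4, KNAT1 (24.9 against 27.9 CPM) was lower, while STM (3.33 against 2.97 CPM) and CLV1 (48.5 against 48.0 CPM) were not. In aba2-1 all of these were higher in labelled release. The 3 root hair markers summed to 6.0, 22.5 and 8.96 CPM in aba2-1, p5cs1-4 and WT labelled release, against 7.12, 21.0 and 1.32 CPM in those labelled stress and 7.07, 2.30 and 1.40 CPM in the controls. The 4 lateral root markers summed to at most 3.42 CPM. MUTE, a regulator of the lineage, was at 0 in the aba2-1 and WT controls. Green tissue markers summed to between 4067 and 5630 CPM in the libraries labelled release, 5656 and 14474 CPM in those labelled stress and 8812 and 16498 CPM in the controls. The part of these tissues in the members' levels was not tested.

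The 10 profiles resembled each other over the 9 libraries, as a description, since all share library depth and composition. The 45 pairwise Pearson r of log2(CPM + 1) were all above 0, from 0.12 to 0.97 with a median of 0.72. With the mean of the other 9, CYCB1;4 had the highest r, 0.98, and CDKB1;1 the lowest, 0.32. CDKB1;1 was also highest in the WT control, at 10.5 CPM, where no other member peaked. Outside all lists, the 8 genes with a symbol nearest to the members' mean profile, over 17821 genes, were POK2 (r of 0.99), WYR (0.98), CAM5, KINESIN-12B, ENODL15, WDL1, 3xHMG-box2 and ROPGEF6 (0.96). POK2 is a kinesin that orients the phragmoplast. Among genes with at least 5 CPM in at least 1 library, the median r was 0.87 for 10 of 13 mitosis and cytokinesis genes. It was 0.83 for 16 of 18 replication genes and 0.81 for 7 of 10 other cyclins. The 9 mitotic regulators had a median of 0.37 (-0.76 to 0.86), and 13 of 16 D cyclin and E2F genes one of 0.37. It was 0.14 for 10 of 16 CDK inhibitors, -0.22 for housekeeping genes and -0.00 for all genes.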

How the data were processed

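Polyadenylated RNA of whole seedlings was sequenced in 9 libraries, with oligo-dT selection, random priming and RNA of 3 experiments pooled, per the labels' protocols. CASAVA 1.6 and TAIR10 appear in the submitters' processing notes. The aligner, the counting and the use of strand are not given in the sources used here. The deposited tables hold, per the file headers, the gene length, estimated counts of reads that need not be whole, RPKM and the fraction of a gene's reads with several map positions. Of 33518 loci, 32709 (97.6%) are in the TAIR10.1 annotation.

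Estimated counts were rounded and scaled to CPM with TMM factors (edgeR 4.0.16, R 4.3.3). For each of 15 pairs of libraries, log2 ratios of CPM + 1 were called at 2-fold with at least 5 CPM in either library, with exact 95% conditional intervals on folds. Reads carry no molecular identifiers, so PCR copies may count as separate reads and the intervals may be too narrow even for counting error. With 1 library a group, they hold no replicate error. The additive model ran on genes with a mean of at least 1 CPM, and its step was tested on simulated data. DESeq2 1.42.0 and limma 3.58.1 gave alternatives. The spread in that model is the departure of genotypes from a shared treatment effect, not replicate error.

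The 10 genes, the lists and the tests were chosen with earlier results of these data known. Named genes were all members, up to 4 genes from each list among those past the rule of a comparison, P5CS1, PRODH1 and RAB18, and the 8 genes most like the members. ABA2 and the 3 printed windows were chosen after their values were seen. Of 16 inhibitor loci, 5 carry no such name in the annotation and are counted only. The upstream window of 1 member is not reported here.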

Additional observations from a re-analysis of the deposited data

How the results depend on the processing

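No paired analysis was possible because each group has 1 library and the labels carry no replicate number. Of 900 log2 ratios of single members under the alternatives, 14 changed sign, 12 of them with RPKM as deposited, and none belonged to a called member. For pairs of libraries, the share of all genes called under each alternative is not given. The counts below therefore show only how far the members' calls depend on the setting. Counts of members at least 2-fold apart that moved by over 1.5 times, or to or from 0, were as follows. With a pseudocount of 0.1, WT labelled release against control had 5, aba2-1 labelled stress against control had 1 and WT labelled stress against control had 2. With no floor, p5cs1-4 labelled release against labelled stress had 2, and p5cs1-4 against WT had 1 labelled release, 2 labelled stress and 1 control, while aba2-1 control against WT control had 1. With a floor of 20 CPM, WT labelled release had 1 of 1 member past it against control and 2 of 2 against labelled stress. In p5cs1-4 labelled release against labelled stress, 0 of 1 were left, and in aba2-1 against WT labelled stress 0 of 2. In aba2-1 against WT labelled release 0 members passed that floor, so none could be called. With RPKM as deposited, WT labelled release against control had 1, and 0 were left in p5cs1-4 labelled release against control or labelled stress and in aba2-1 against WT labelled stress. With reads that map to 1 place, 0 were left in p5cs1-4 labelled release against control. In the additive model, DESeq2 called 1 member for labelled release against control and 3 against labelled stress, and leaving out a genotype or treatment gave 0 to 2 in each. Without p5cs1-4 or without WT, edgeR called no gene at all in these contrasts, with 2352 to 3156 at an unadjusted p under 0.05. Smaller moves were to 3 in WT labelled release against control with no floor or with DESeq2 size factors, to 8 with no floor and 5 with RPKM in aba2-1 against WT labelled release, and to 4 with RPKM in WT labelled release against labelled stress. The causes were not tested, beyond the smaller number of members past a floor of 20 CPM. Scaling by RPKM moved the median of all genes from 0.02 to 0.18 on the log2 scale for labelled release against control in the additive model, a shift of 0.16, and by -0.02 to 0.19 in the 15 pairs of libraries.

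Depth limits the lowest members: 4 reads in the WT control give CYCB2;1 and CDKB1;2 wide intervals.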
